A study of Mus musculus with 4 samples.

Results

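The replication and mitosis genes described here were 43 genes of the cell division cycle, taken by name from the 24378 gene rows of the tables, and all 43 had a row. They were read in the 161 wells of 384 that held at least 2000 unique molecular identifiers (UMIs, which count captured RNA molecules once each) on genes, and 42 of the 43 had a UMI in at least 1 of these cells. By role they comprised 6 G1 cyclins and kinases, 2 inhibitors of those kinases, 10 genes of DNA replication, 19 genes of mitosis, 5 genes of chromatin and tubulin, and *Ccnb1ip1*, which is known as a meiotic recombination factor and had no UMI in any cell.

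The study compared basal cells of mouse epidermis that had or had not switched on involucrin, a differentiation gene, by sequencing single cells on Fluidigm C1 chips. All cells came from the back skin between the hair follicles of a pair of female Ivl-CreERT2/R26-tdTomato mice, 57 days old, that had been given tamoxifen at 10 µg per g of body weight 2 days earlier, as the labels give it, while the study's methods state a higher dose for this genotype. In these mice the involucrin promoter drives a tamoxifen-dependent Cre recombinase that turns on the red reporter tdTomato, so that a red cell (Tom+) had used that promoter, or descends from a cell that had, and an unlabelled cell (Tom-) may still have used it without recombining. Tom+ and Tom- cells carried the same alleles, had the same treatment, and were live cells sorted as CD49f+ (integrin α6), LY6A+ and CD34-, before capture on chips made for a set range of cell diameters. Each sort was captured in 2 runs, and the labels do not say whether a run stands for a mouse, so that p-values below measure the spread between libraries only. Tom+ held 35 cells in run 1 and 58 in run 2, and Tom- held 20 and 48. The libraries held 81630 to 305407 UMIs on genes in kept cells, with medians of 3225 to 4524.5 UMIs per cell. The labelled cell type was checked against markers of basal keratinocytes, and *Krt5* was seen in all 161 cells and *Krt14* in 145, while 3 or more markers of T cells were found in 3 cells, of Langerhans cells in 2, and of the infundibulum, the upper hair follicle, in 3. Wells holding 2 cells were neither called nor removed.

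A dividing cell passes through G1, in which D-type cyclins with Cdk4 and Cdk6 release the E2F factors, then S phase, in which DNA is copied, and G2 and mitosis, which Cdk1 with its cyclins drives. The inhibitors Cdkn1a (p21) and Cdkn1b (p27) hold the cyclin-dependent kinases back. In the epidermis, division is a property of the basal layer, while keratins 10 and 1 are the classical products of cells that have begun to differentiate. Transcripts of most mitosis genes are made in G2 and mitosis and removed afterwards, so that they are scarce in a resting cell. By contrast, transcripts of D-type cyclins, tubulins and histone variants are present through the cycle.

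The mitosis genes fell into few cells. Of the 161 cells, 133 had no UMI of any of the 19 mitosis genes, 19 had 1 of these genes, and 3 had 2. No cell had 3 to 7, and 6 cells had 8, 8, 8, 13, 15 and 18 of them. A cut at 3 genes therefore separated 6 cells, with 8 genes just inside it and 2 genes just outside. These 6 cells, called mitosis-gene cells below, were 3.73% of all cells, with an exact Clopper-Pearson 95% interval of 1.38 to 7.93%. Such intervals, and the limits given for counts of 0, cover counting error only. Together the 6 cells held 206 of the 238 mitosis-gene UMIs of the series (86.6%), or 4872 CPM against 46.6 CPM in the other 155 cells, where CPM are counts scaled to 1000000 gene UMIs summed over the cells. The 6 cells were chosen by the number of these genes seen, so that this contrast follows in part from the cut.

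**Figure D1:**
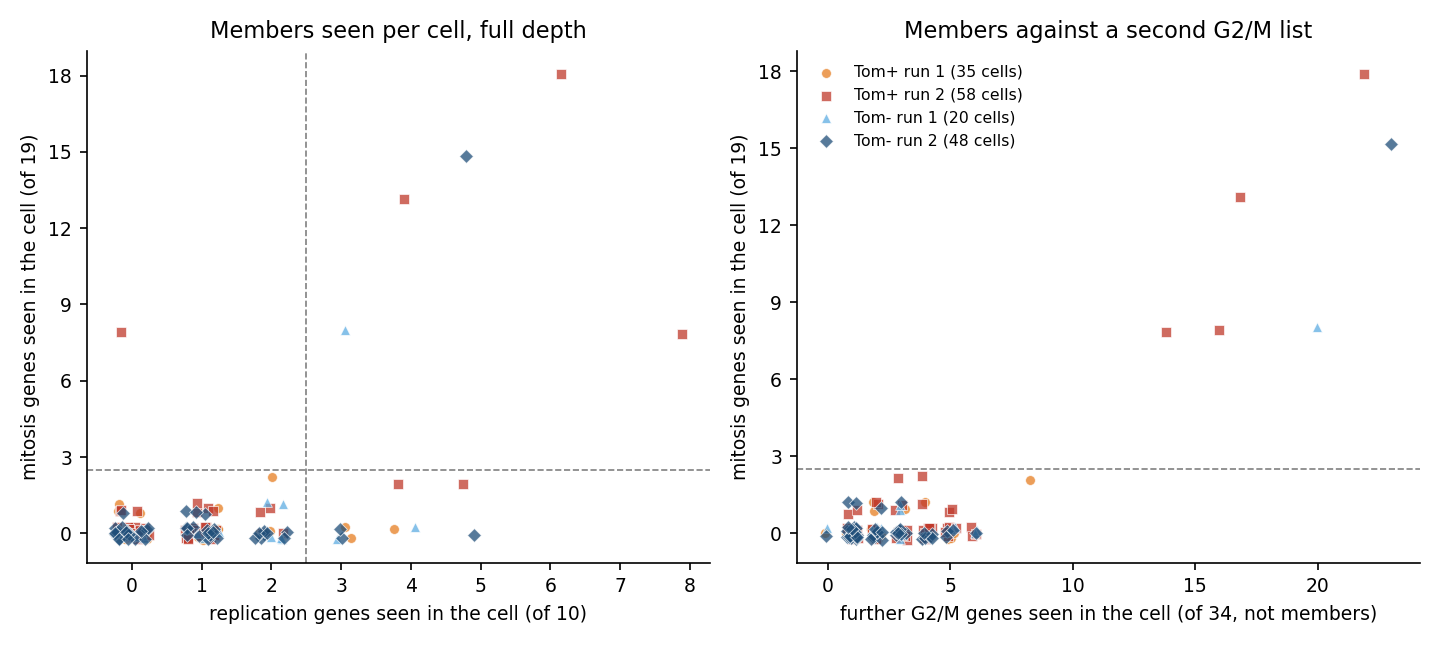
Each point is 1 of the 161 cells, coloured by library and moved slightly at random so that points do not hide each other. The left panel plots mitosis genes seen in the cell against replication genes seen, and the right panel plots mitosis genes seen against a second G2/M list that shares no gene with the members. Dashed lines mark the cut at 3 genes. In both panels 6 cells stand apart at 8 or more mitosis genes.

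The 7 mitosis genes seen in at least 5 of the 6 mitosis-gene cells were *Mki67*, *Top2a*, *Cdk1*, *Cenpf*, *Ube2c*, *Ccnb1* and *Cdc20*. Promoters of G2/M genes are known for the CHR, a short element bound by the complexes that repress these genes in resting cells and activate them in G2, and for CCAAT boxes bound by NF-Y. The 100 bases just before the outermost annotated start of each gene are printed in the direction of transcription (RefSeq, GRCm38.p6), with every CHR (TTTGAA or its reverse complement) and every CCAAT box (CCAAT or its reverse complement) in capitals. They are shown because these genes were seen together in the same few cells.
Mki67, chr7:135716451-135716550, minus strand: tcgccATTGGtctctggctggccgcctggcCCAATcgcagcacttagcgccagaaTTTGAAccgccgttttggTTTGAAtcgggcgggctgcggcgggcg
Top2a, chr11:99024200-99024299, minus strand: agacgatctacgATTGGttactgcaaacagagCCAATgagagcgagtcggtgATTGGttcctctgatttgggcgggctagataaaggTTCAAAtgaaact
Cdk1, chr10:69352913-69353012, minus strand: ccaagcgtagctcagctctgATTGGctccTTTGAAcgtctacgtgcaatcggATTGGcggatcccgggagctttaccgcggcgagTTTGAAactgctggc
Cenpf, chr1:189688108-189688207, minus strand: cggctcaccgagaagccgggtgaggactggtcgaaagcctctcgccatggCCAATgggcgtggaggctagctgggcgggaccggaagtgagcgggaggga
Ube2c, chr2:164769829-164769928, plus strand: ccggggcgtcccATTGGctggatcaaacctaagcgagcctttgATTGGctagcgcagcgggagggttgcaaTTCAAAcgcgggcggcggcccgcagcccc
Ccnb1, chr13:100786487-100786586, minus strand: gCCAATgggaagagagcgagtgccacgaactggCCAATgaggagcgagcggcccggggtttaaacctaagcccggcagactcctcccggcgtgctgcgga
Cdc20, chr4:118437344-118437443, minus strand: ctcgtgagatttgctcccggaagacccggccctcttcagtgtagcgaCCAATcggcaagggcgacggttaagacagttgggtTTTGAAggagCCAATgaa

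All 7 stretches held a CCAAT box, and 5 of the 7 held a CHR; *Cenpf* and *Ccnb1* had none in the printed bases. Counted over whole windows of 300 bases, from 250 before to 50 after a start, 35 of the 43 members had a window. A CHR was in 11 of the 16 windows of mitosis genes (68.8%), in 1 of the 10 windows of replication genes and in 17.9% of all 32851 windows of the table. A CCAAT box was in 13 of the 16 mitosis windows (81.2%), in 9 of the 10 replication windows (90%) and in 37.4% of all windows. Both motifs together were in 68.8% of mitosis windows and in 6.95% of all windows. E2F sites, searched as TTTGGCGC, TTTCCCGC, TTTCGCGC and TTTGCCGC on both strands, were in 4 of the 10 replication windows (40%), in 1 of the 16 mitosis windows and in 2.26% of all windows. The letters of different motifs can share end bases, and such overlaps were counted for both. These are matches of letters, not sites shown to be bound, and the members were not drawn at random from the genome.

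Of the 19 mitosis genes, 7 had UMIs only in the mitosis-gene cells, which had been chosen by these 19 genes. *Cdk1*, the kinase that drives entry into mitosis, had 26 UMIs in 5 of the 6 cells and none in the other 155. *Cenpf*, a kinetochore protein, had 20 UMIs in 5 of the 6 and none elsewhere. The other 5 were *Aurkb* and *Birc5* of the chromosomal passenger complex, the cyclins *Ccnb2* and *Ccna2*, and the spindle motor *Kif11*, with 3 to 9 UMIs each. The 12 remaining mitosis genes also had UMIs elsewhere, in 1 to 7 cells each.

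*Top2a*, the topoisomerase that untangles sister chromatids, was the mitosis gene with the most UMIs. It had 35 UMIs in 5 of the 6 mitosis-gene cells and 10 UMIs in 7 other cells, where no cell had more than 2. *Mki67*, the proliferation marker that coats mitotic chromosomes, had 13 UMIs in 5 of the 6 and 6 UMIs in 4 others. *Ube2c* and *Cdc20*, both needed by the anaphase-promoting complex, had 19 and 10 UMIs in the mitosis-gene cells and 2 and 1 elsewhere. *Aurka*, the spindle pole kinase, had 12 UMIs in 2 mitosis-gene cells and 1 elsewhere. *Nusap1* had 10 UMIs in 4 mitosis-gene cells and 1 elsewhere, and *Tpx2* had 3 UMIs in 3 and 1 elsewhere. The checkpoint genes *Bub1* and *Mad2l1*, with 3 and 4 UMIs in all, were too sparse to place. In all, the 22 cells with 1 or 2 mitosis genes held 32 mitosis-gene UMIs, and in 12 of the 22 none was left after each cell was thinned at random to 2000 UMIs.

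The 6 mitosis-gene cells did not share a single profile. The cell with the most mitosis genes, from Tom+ run 2, had 81 mitosis-gene UMIs, among them 15 of *Top2a*, 13 of *Cdk1* and 8 of *Ube2c*, and 6 of the 10 replication genes. The Tom- run 2 cell had 15 mitosis genes and 50 UMIs of them, led by 11 of *Top2a* and 7 of *Aurka*, and 5 replication genes. The Tom- run 1 cell had 8 mitosis genes with 26 UMIs, led by 7 of *Cenpf*, and 3 replication genes. In these 3 cells both sets of genes were present, with mitosis genes well ahead.

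Among the other 3, all from Tom+ run 2, the balance of the sets differed. The cell with 13 mitosis genes had 23 UMIs of them, none above 3 UMIs, and 4 replication genes. A cell with 8 mitosis genes had all but 2 of the 10 replication genes, with 23 replication UMIs against 13 mitosis UMIs, and had no UMI of *Ccnb1*, *Ccnb2*, *Plk1* or *Cdc20*. The last cell, also with 8 mitosis genes, had no replication gene, and its mitosis UMIs were led by 4 of *Cdc20* and 3 of *Bub1b*, while *Top2a*, *Cdk1* and *Cenpf* were at 0. That cell was the only mitosis-gene cell to lose its place on thinning: it kept 0 mitosis genes of 8 at 2000 UMIs, and the other 5 kept 5, 6, 8, 10 and 12.

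**Figure D2:**
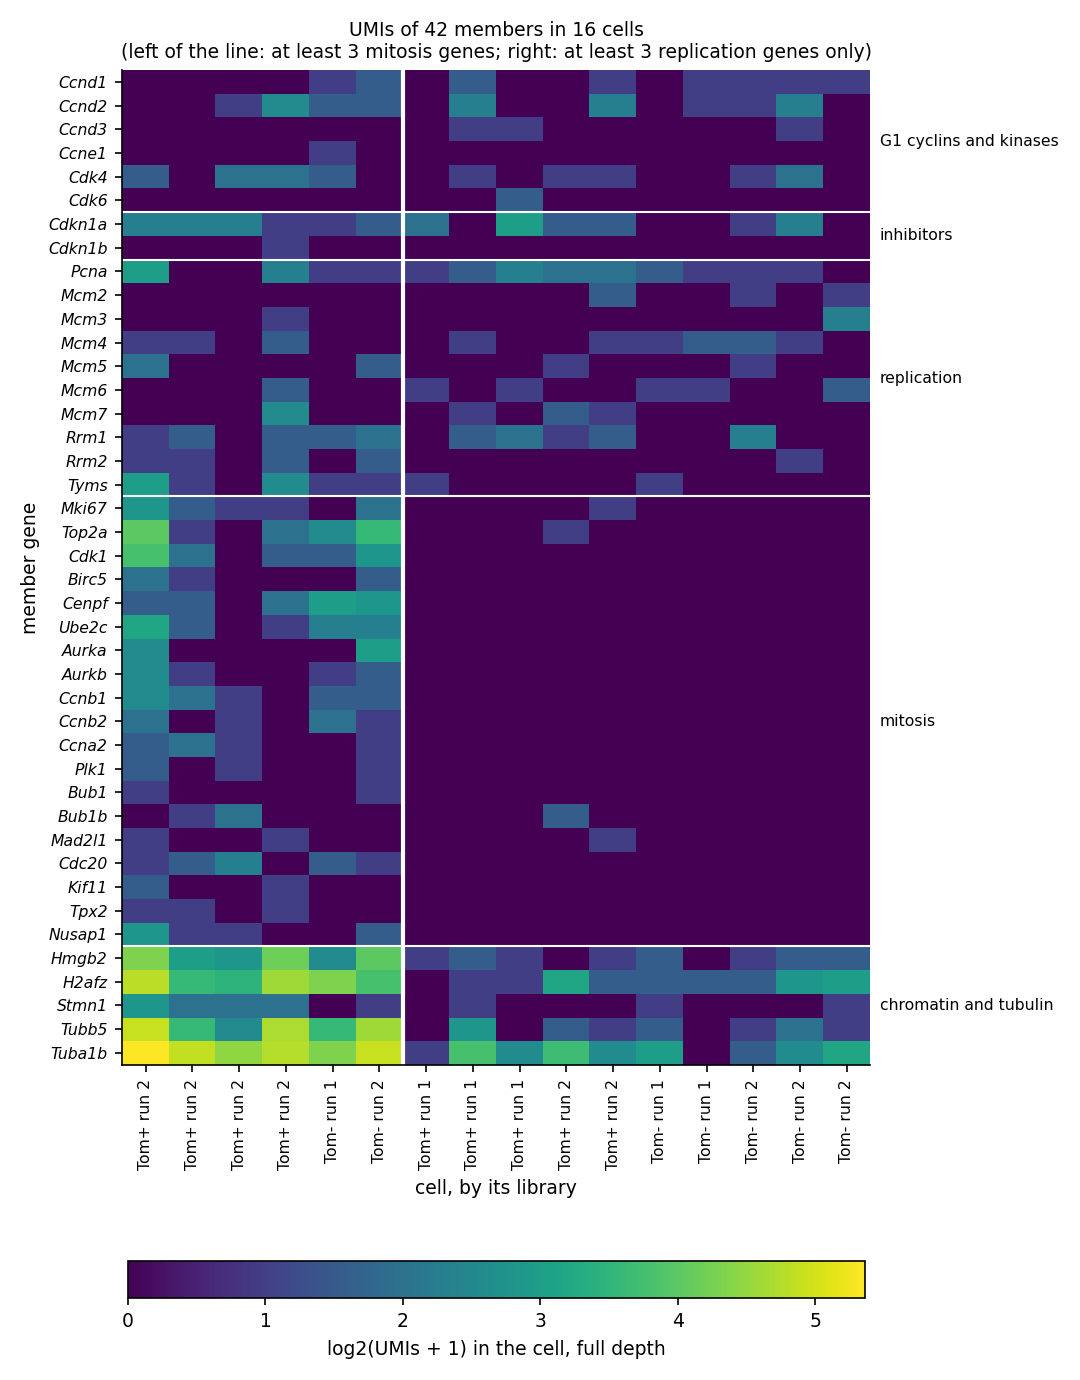
UMIs at full depth of the 42 members seen, as log2(UMIs + 1), in the 6 mitosis-gene cells (left of the white line) and the 10 cells with at least 3 replication genes only (right of it), each column labelled with its library. Horizontal lines separate the roles. The mitosis block is filled on the left and almost empty on the right, while *Pcna*, *Mcm4* and *Rrm1* appear on both sides. Cells were placed by the mitosis and replication genes seen in them, so that this contrast follows in part from that choice.

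The mitosis-gene cells were deeper than most. They held 4655 to 9801 UMIs, with a median of 6456, against a median of 3801 and a range of 2024 to 11578 in the other 155, and ranked 5, 7, 20, 30, 32 and 60 of 161 in depth. Depth moved with the finding, and its part was not tested beyond thinning. After thinning, 5 cells still had at least 3 mitosis genes, 146 had none and 10 had 1. Among the 54 wells below 2000 UMIs, no well had more than 1 mitosis gene.

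A second list of G2/M genes held no member, so that the cut had not used it. Of its 34 genes, 33 had a UMI. The mitosis-gene cells had 14 to 23 of them each, against a median of 3 and a highest value of 8 in the other 155 cells, so that the ranges did not overlap. After thinning the 6 cells had 7 to 16, against a median of 2 and a highest value of 5. The cell that had lost all mitosis members on thinning had 7 of this list. Of 29 further S phase genes, the 6 cells had 4 to 20, the highest in the cell with 8 replication genes, and the others had a median of 1 and at most 11.

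Genes outside the members that marked these cells most were looked up after the cells were known. Of those named below, *Anln*, *Cdca3*, *Hmmr* and *Ncapd2* were also on the second G2/M list, so that they repeat part of it. *Anln*, the cytokinesis protein anillin, was seen at 2000 UMIs in 5 of the 6 mitosis-gene cells and in 3 of the other 155. *Prc1*, which bundles the central spindle, was seen in 5 of 6 and in 6 of 155. *Grn*, which encodes progranulin, *Ube2s*, a ubiquitin-conjugating enzyme of the anaphase-promoting complex, and *Snrpd1*, a splicing factor, came next, each in 5 of 6 and in 11, 12 and 24 of 155. *Cdca3* and *Hmmr* were each seen in 4 of 6 and in none of 155, and *1190002F15Rik*, *2810417H13Rik* and *Ncapd2* in 4 of 6 and in 1 of 155. By the rule that took all 16 cells with at least 3 mitosis or at least 3 replication genes, the 10 leading genes were *Rbx1*, *Erh*, *Rbbp7*, *Grn*, *Atp5j*, *2700094K13Rik*, *C920025E04Rik*, *Gm5506_loc1*, *Ssr3* and *Anln*. *Rbx1*, a subunit of cullin ubiquitin ligases, led with 14 of 16 cells (87.5%) against 45 of 145 (31%).

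Replication genes were spread over many more cells than mitosis genes. Of 161 cells, 69 had none of the 10 replication genes, 57 had 1, 20 had 2 and 15 had 3 to 8. *Pcna*, the sliding clamp of the replication fork, was seen in 50 cells, *Rrm1*, the large subunit of ribonucleotide reductase, in 25, and *Tyms*, which makes thymidylate, in 18. Of the 6 genes of the Mcm helicase, *Mcm4* and *Mcm6* were each seen in 17 cells and *Mcm2*, *Mcm3*, *Mcm5* and *Mcm7* in 4 to 8. The mitosis-gene cells held 61 of the 270 replication UMIs (22.6%), or 1443 CPM against 304 CPM in the others, a ratio of 4.74. *Rrm2*, the subunit of ribonucleotide reductase whose level follows S phase, and *Tyms* were the most concentrated of those with over 10 UMIs, with 54.5% and 50% of their UMIs in the 6 cells. *Mcm2* and *Mcm6* were the least, with 0 of 11 and 2 of 30 UMIs there.

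Of the 15 cells with at least 3 replication genes, 5 were mitosis-gene cells and 10 were not. Those 10 cells came from all 4 libraries, and 8 of them had no mitosis gene. They had 1 to 6 of the 34 further G2/M genes, within the range of the cells with neither set, which was 0 to 8. They had 0 to 11 of the 29 further S phase genes at full depth, with a median of 3.5 against 1. These 10 cells were deeper, with a median of 5111 UMIs against 3791 in the cells with neither set. At 2000 UMIs both medians of the further S phase genes were 1. The class was less distinct than the mitosis-gene cells: at 2000 UMIs only 6 of all 161 cells had at least 3 replication genes, and with at least 2 UMIs required for each gene only 4 had.

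The 5 genes of chromatin and tubulin were seen in many cells but at a higher level in the mitosis-gene cells. *Hmgb2*, a chromatin protein that rises with division, had 5 to 19 UMIs in each of the 6 cells, against a median of 0 and at most 7 in the others. *H2afz*, a histone variant, had 10 to 27 UMIs in each, against a median of 1 and at most 8. At full depth the ranges of *H2afz* did not overlap, and at 2000 UMIs both genes were seen in 100% of the 6 cells, against 23.2% of the others for *Hmgb2* and 47.1% for *H2afz*. *Tubb5* and *Tuba1b*, the tubulin subunits, had 5 to 29 and 19 to 40 UMIs, against at most 8 and 14. *Stmn1*, which destabilizes microtubules, had 0 to 6 UMIs against at most 3. As a group these genes stood at 10760 CPM in the 6 cells and 1484 CPM in the others, a ratio of 7.25.

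As a group the G1 members showed no such concentration. The 6 G1 cyclins and kinases stood at 568 CPM in the mitosis-gene cells and 613 CPM in the others, and the 2 inhibitors at 402 and 536 CPM. *Ccnd1*, *Ccnd2* and *Ccnd3*, the D-type cyclins, were seen in 43, 78 and 13 of the 161 cells, and 98 cells had at least 1 of the 3. *Ccne1*, the cyclin of the G1 to S step, had 1 UMI in the series, in the Tom- run 1 mitosis-gene cell. *Cdk6* was seen in 12 cells and *Cdk4* in 57. *Cdk4* stood at 236 CPM in the mitosis-gene cells and 125 CPM in the others, on 10 and 86 UMIs. By CPM, *Ccnd1*, *Ccnd2*, *Ccnd3* and *Cdk6* stood lower in the mitosis-gene cells than in the others. They had 3, 10, 0 and 0 UMIs there and 81, 224, 16 and 14 in the others, too few to place. At full depth *Ccnd2* was seen in 4 of the 6 cells and in 74 of the other 155, and after thinning in 33.3% and 39.4%. *Cdkn1a* was seen at full depth in all 6 mitosis-gene cells, with 1 to 4 UMIs each. It was also seen in 103 of the other 155, with at most 16. After thinning to equal depth, it was seen in 33.3% of the mitosis-gene cells and in 51.6% of the others. The order of these shares thus reversed with depth.

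The 6 mitosis-gene cells had the keratins of basal cells. Thinned to 2000 UMIs, they had 24 to 65 UMIs of *Krt14*, with a median of 27.5, against a median of 18 and a range of 0 to 109 in the others. Their *Krt10* was 3, 3, 1, 1 and 0 UMIs in 5 cells and 16 in the sixth, against a median of 4 and a range of 0 to 66. With *Krt10* positive meaning at least 6 UMIs at this depth, 1 of the 68 positive cells (1.47%, interval 0.0372 to 7.92%) and 5 of the 93 negative cells (5.38%, interval 1.77 to 12.1%) were mitosis-gene cells, and these intervals overlap. No test was made of so few cells.

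The *Krt10* positive mitosis-gene cell was the one without replication genes. At full depth it had 170 UMIs of *Krt14*, 155 of *Krt5*, 47 of *Krt10*, 38 of *Krt1* and 81 of *Krtdap*, a secreted product of differentiating keratinocytes, and 3 UMIs of tdTomato. It held 9801 UMIs, the fifth highest of 161, and whether its well held 2 cells was not tested. *Lor* and *Ivl*, products of late differentiation, were at 0 in all 6 mitosis-gene cells. Of the 6 suprabasal markers, 4 of the 6 cells had at least 3, with 1 to 188 UMIs of the list per cell, which 93 of the other 155 cells also had. Of the cell types other than interfollicular keratinocytes, none of the 6 had 3 or more markers, and *Cd3e*, *Cd3d*, *Cd3g* and *Ptprc* of T cells and all fibroblast, melanocyte and endothelial markers were at 0 in them. A further T cell marker had 2 UMIs in the 6 cells. Each of the 6 had 1 or 2 infundibulum markers, with 1 to 17 UMIs, against 0 to 4 markers in the others. Bulge, sebaceous and Langerhans cell markers had 9, 5 and 1 UMIs in the 6 cells.

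**Figure D3:**
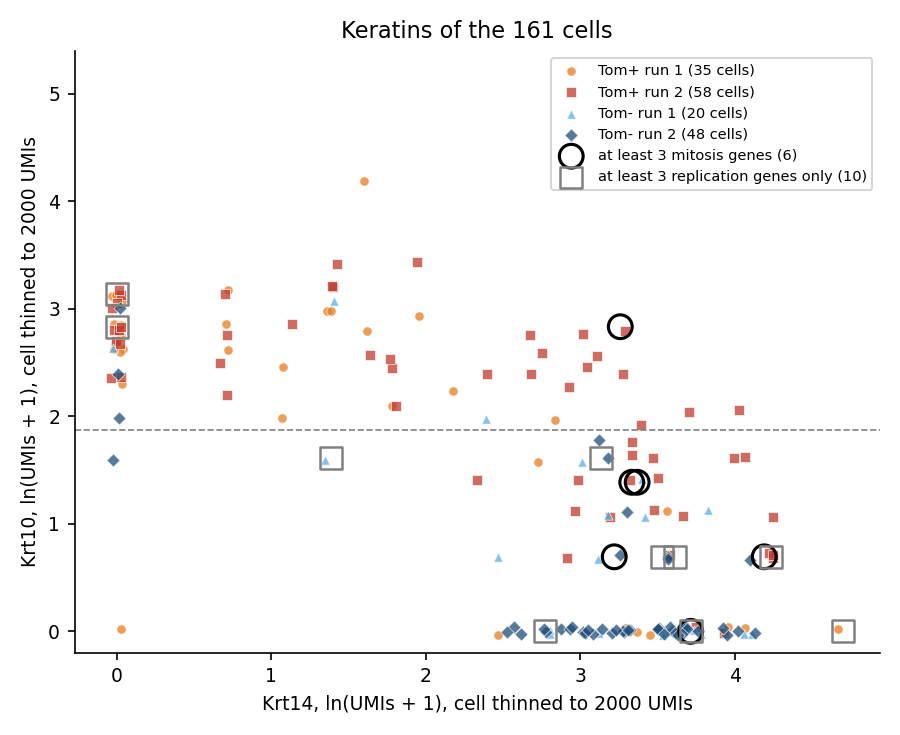
*Krt10* against *Krt14* in the 161 cells, each thinned to 2000 UMIs and plotted as ln(UMIs + 1), coloured by library, with a small random shift. Black circles mark the 6 mitosis-gene cells, grey squares the 10 cells with at least 3 replication genes only, and the dashed line the lower limit of *Krt10* positive cells. The circles lie between 24 and 65 UMIs of *Krt14*, and 1 lies above the line.

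Of the 10 cells with replication genes only, 2 were *Krt10* positive, both from Tom+ run 1, with 24 and 62 *Krt10* UMIs and 0 and 4 *Krt14* UMIs at full depth. The other 8 had 0 to 4 thinned UMIs of *Krt10*. In Tom+ run 2, where both keratin classes held over 20 cells, the 21 *Krt10* negative cells had a mean of 2.76 replication and mitosis genes at 2000 UMIs (SD over cells 4.52) and the 37 positive cells 0.297 (SD 0.571). The negative mean rested on 3 mitosis-gene cells, and without them the 18 other negative cells had a mean of 1 (SD 0.84), and without the positive one the 36 other positive cells had 0.306 (SD 0.577). In Tom+ run 1, which held no mitosis-gene cell, the means were 0.5 in 10 negative cells and 0.56 in 25 positive cells. Tom- held only 3 *Krt10* positive cells in each run.

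By sort and run, mitosis-gene cells were 0 of 35 in Tom+ run 1, 4 of 58 in Tom+ run 2, 1 of 20 in Tom- run 1 and 1 of 48 in Tom- run 2. As shares these were 0% (exact upper bound 10%, while the rule of 3 counts for a count of 0 allows up to 8.57%), 6.9% (interval 1.91 to 16.7%), 5% (0.127 to 24.9%) and 2.08% (0.0527 to 11.1%). The Tom+ libraries lay on either side of the Tom- libraries. Cells with at least 3 replication genes were 3 of 35, 5 of 58, 3 of 20 and 4 of 48 in the same order, or 8.57%, 8.62%, 15% and 8.33%. Both sorts held cells of both kinds.

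The number of members seen per cell overlapped between the sorts. At full depth the mean was 5.37 and 7.09 genes in Tom+ and 6.15 and 5.62 in Tom- (run 1 and run 2). Thinned to 2000 UMIs it was 3.57 and 4.69 in Tom+ and 4.05 and 3.88 in Tom-. The difference of the thinned means, 0.168 genes, gave p = 1 in a two-sided exact permutation test over the 4 libraries, a design whose smallest p is 0.333. The difference (Tom+ minus Tom-) was -0.479 genes within run 1 and 0.815 genes within run 2. For the 29 replication and mitosis genes alone the thinned means were 0.543 and 1.19 in Tom+ and 1.1 and 0.646 in Tom-, a difference of -0.00666 (p = 1, exact permutation test, n = 2 libraries a group).

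Levels of the mitosis genes per library followed the few mitosis-gene cells. The 19 mitosis genes summed to 50.9 and 481 CPM in Tom+ and 355 and 293 CPM in Tom- (run 1 and run 2). Without the 6 cells these sums were 50.9 and 61.9 CPM in Tom+ and 39 and 22.5 CPM in Tom-. A drop follows from leaving out cells that were chosen by these genes. The 5 genes of chromatin and tubulin went from 1411, 2426, 1985 and 1891 CPM to 1411, 1532, 1403 and 1509 CPM in the same order, so that the libraries came within 129 CPM of each other. The 10 replication genes went from 267, 386, 502 and 374 CPM to 267, 255, 481 and 338 CPM, where Tom- run 1 stayed the highest and both Tom+ libraries came to lie below both Tom- libraries. The sums of inhibitors and of G1 genes moved by at most 38 CPM.

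**Figure D4:**
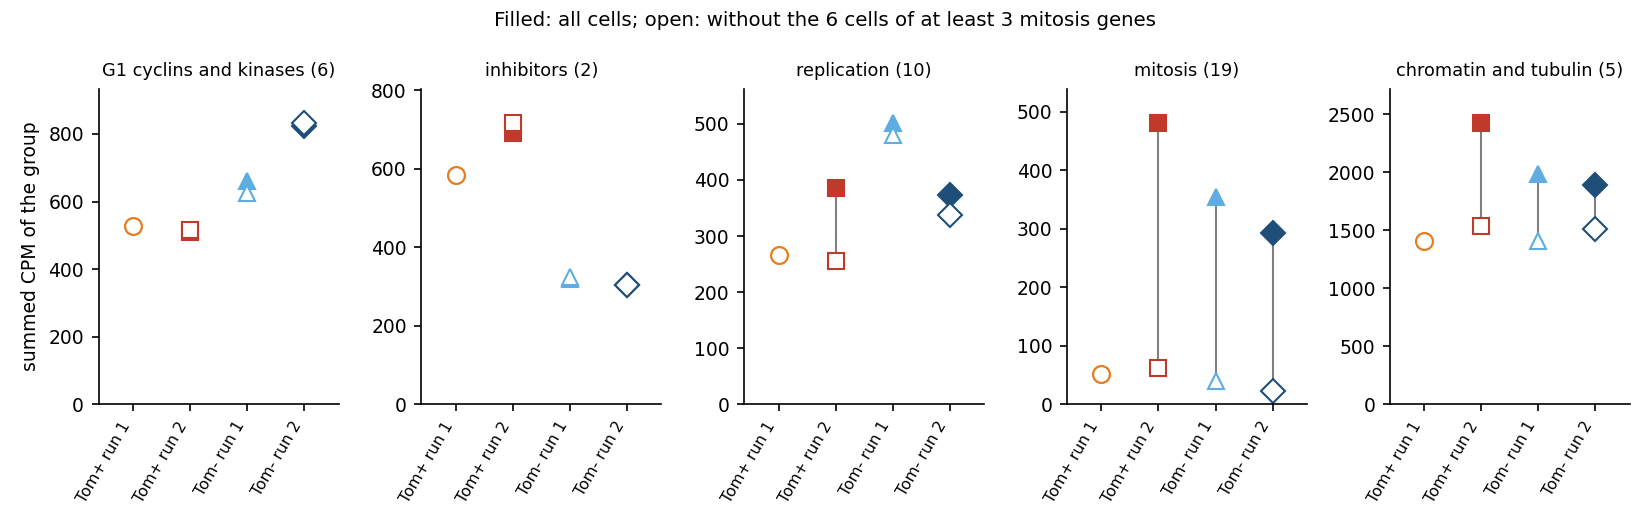
Summed CPM of the genes of each role in each library, with all cells (filled symbols) and without the 6 mitosis-gene cells (open symbols), each panel starting at 0. Mitosis genes drop from between 293 and 481 CPM to between 22.5 and 61.9 CPM in the 3 libraries that held such cells, and Tom+ run 1, which held none, stays at 50.9 CPM. The cells left out were chosen by the mitosis genes, so that a drop of these genes follows from that choice.

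For a test per gene, counts were summed over the cells of each library and fitted by edgeR (quasi-likelihood test), and p-values were adjusted after Benjamini and Hochberg over the 3070 genes that passed its filter on low counts. The filter left 12 of the 43 members, and the 31 others had too few UMIs to test. Over all genes tested, 38 passed an adjusted p of 0.05 (1.24%). Of the 12 members 0 passed, against 3 at an unadjusted p under 0.05 (9.84% of all genes tested), and DESeq2's Wald test and limma-voom also passed 0. With the capture run as a replicate block, edgeR passed 116 of the 3070 genes tested, against 38 without it. Of the members it then passed 1, *Cdkn1a*. The median log2 fold change was -0.04 over the 12 members and -0.01 over all genes tested. Of the 12, 4 had both Tom+ libraries above both Tom- libraries and 2 had both below, against 20.8% and 18% of all genes tested. The filter asks for a minimum level in 2 libraries. *Stmn1*, among the 4, and *Rrm1*, among the 2, met it only through their higher sort, so that their order follows from the filter.

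*Cdkn1a* came nearest to the threshold. Its level was 534 and 671 CPM in Tom+ and 245 and 276 CPM in Tom-, so that the groups did not overlap. The log2 fold change was 1.16 (SE 0.32), or 2.23-fold, with an adjusted p of 0.0972 by edgeR's quasi-likelihood test. The call changed with the capture run as a replicate block (adjusted p 0.00277 by edgeR), where 116 of all 3070 genes tested passed. With all 4 libraries kept, the adjusted p ran from 0.00277 to 0.542 over the alternatives. At 2000 UMIs the share of cells with a *Cdkn1a* UMI was 54.3% and 62.1% in the Tom+ libraries, against 30% and 43.8% in the Tom- libraries. *Krt10* positive cells were 71.4% and 63.8% of Tom+ but 15% and 6.25% of Tom-, so values within keratin classes stand beside this. Among *Krt10* negative cells the mean was 1.1 and 0.762 thinned UMIs of *Cdkn1a* in Tom+ and 0.353 and 0.6 in Tom-, without overlap. The share of these cells with a *Cdkn1a* UMI was 40% and 52.4% in Tom+ and 29.4% and 42.2% in Tom-, which overlapped. Among *Krt10* positive cells the mean was 0.84 and 1.41 in Tom+ and 0.333 and 0.667 in Tom-, where each mean rests on 3 cells. The shares there were 60% and 67.6% in Tom+ and 33.3% and 66.7% in Tom-, which also overlapped. The other inhibitor, *Cdkn1b*, had 25 UMIs in all and was not tested.

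*Ccnd2* was at 191 and 282 CPM in Tom+ and 404 and 461 CPM in Tom-, again without overlap. The log2 fold change was -0.89 (SE 0.34), with an unadjusted p of 0.0147 and an adjusted p of 0.302 by edgeR. The values differed between the keratin classes. Among *Krt10* negative cells the mean was 1 and 1.24 thinned UMIs in Tom+ and 0.529 and 1 in Tom-, so that Tom+ was not lower there, and among *Krt10* positive cells it was 0.12 and 0.405 in Tom+ and 0.667 and 0.333 in Tom-, where each mean rests on 3 cells. *Ccnd1* was at 140 and 62.2 CPM in Tom+ and 110 and 184 CPM in Tom-, which overlapped, and its log2 fold change of -0.75 was -0.15 without Tom- run 2. *Cdk4* was at 146 and 138 CPM against 85.8 and 130 CPM, a log2 difference of 0.27 (SE 0.43), within its error.

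Of the replication genes, *Pcna* and *Rrm1* could be tested, and they lay in opposite directions. *Pcna* was at 127 and 144 CPM in Tom+ and 98 and 92.1 CPM in Tom-. Its log2 fold change of 0.49 had an SE of 0.44 and an adjusted p of 0.869 by edgeR. *Rrm1* was at 38.1 and 52.4 CPM in Tom+ and 98 and 103 CPM in Tom-. Its log2 fold change of -1.14 (SE 0.54) had an unadjusted p of 0.0469 and an adjusted p of 0.504 by edgeR. Neither pair of groups overlapped, and neither gene passed the adjusted test. *Rrm1* passed the filter on low counts only through its Tom- libraries, so that its direction and lack of overlap follow from the filter.

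*Top2a* was the only mitosis gene that could be tested. It had no UMI in Tom+ run 1 and was at 88.4 CPM in Tom+ run 2, 85.8 CPM in Tom- run 1 and 59.6 CPM in Tom- run 2, so that the spread within Tom+ exceeded the difference between the sorts. The chromatin and tubulin genes had log2 fold changes from -0.35 for *H2afz* to 1.09 for *Stmn1*. *Stmn1* was at 76.3 and 68.8 CPM in Tom+ and 12.3 and 43.3 CPM in Tom-, on 33 and 9 UMIs, with an adjusted p of 0.73 by edgeR. *Stmn1* passed the filter on low counts only through its Tom+ libraries, so that its direction and lack of overlap follow from the filter. Its log2 fold change was 2.56 without Tom- run 2 and 0.63 without Tom- run 1. *Hmgb2*, *H2afz*, *Tubb5* and *Tuba1b* overlapped between the sorts, and in each Tom+ run 2 stood above Tom+ run 1.

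**Figure D5:**
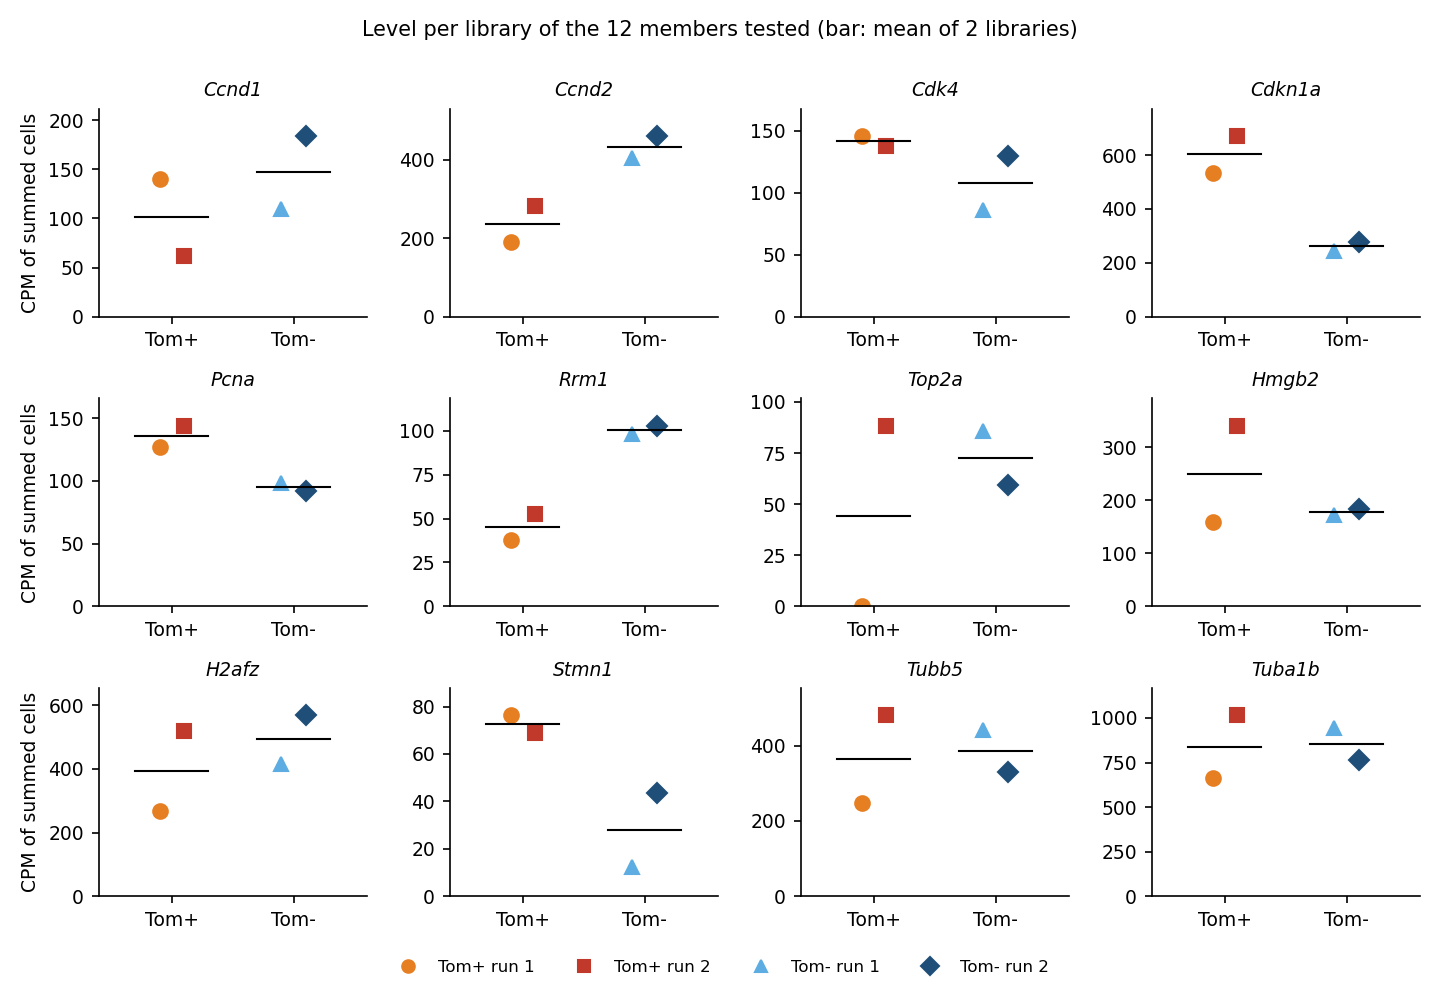
CPM of the 12 tested members in each of the 4 libraries, with bars at the mean of each sort and each axis starting at 0. *Cdkn1a*, *Cdk4*, *Pcna* and *Stmn1* are higher and *Ccnd2* and *Rrm1* are lower in both Tom+ libraries. *Stmn1* and *Rrm1* passed the filter on low counts only through their higher sort. No member passed the adjusted test unless the capture run was a replicate block. *Cdkn1a* then did, as 1 of 116 genes passing among all 3070 tested.

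Related lists, chosen with no member on them, gave the same count of 0 by edgeR's adjusted test, which 1.24% of all genes tested passed. With so few of their genes tested, a count of 0 cannot be told from that share. Of 20 inhibitors and growth arrest genes 8 were tested and 1, *Cdkn2d*, had an unadjusted p under 0.05, with a log2 fold change of -1.13 (SE 0.53, adjusted p 0.501). Of 34 further G2/M genes 9 were tested, of 25 E2F and G1/S regulators 2, and of 29 further S phase genes 1. In each of these 0 had an unadjusted p under 0.05 by edgeR, against 9.84% of all genes tested. Their log2 fold changes ran from -0.99 for *Anp32e* to 0.83 for *Rangap1*. In the mitosis-gene cells the E2F and G1/S regulators stood at 1939 CPM against 575 CPM in the others, and the inhibitors and growth arrest genes at 7024 CPM against 7659 CPM.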

How the data were processed

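UMI counts per gene and well were deposited by the authors without normalization, made from 5-prime STRT libraries on Fluidigm C1 chips; the submitters' processing notes name mm10 and GRCm38, and the aligner is not given in the sources used here. Gene rows only entered totals, and 109 spike-in and reporter rows were kept apart. Wells with at least 2000 UMIs were kept (161 of 384), and 169 wells had none. Members, roles and lists were chosen with earlier results of these data known. Text names all members, genes of other lists past a threshold, and the 10 genes whose share of cells at 2000 UMIs differed most for the cells with several members. Cells were thinned once (seed 1). Counts summed per library were fitted by the quasi-likelihood test of edgeR 4.0.16 in R 4.3.3 (filterByExpr, TMM factors), and alternatives used DESeq2 1.42.0 and limma 3.58.1. Libraries of a sort differed beyond sampling noise (chi-square per degree of freedom 2.18 and 2.06). On counts simulated for this comparison over 3121 genes, 76.5% of 4-fold and 100% of 16-fold changes were recovered, and 13 of 174 calls were false. Changes under 4-fold were not simulated, and the largest change of a tested member was 2.23-fold. The 2 runs share a number with each sort (correlation of deviations 0.131), which does not show pairing. Promoter windows came from RefSeq, GRCm38.p6.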

Additional observations from a re-analysis of the deposited data

Results flagged for a closer look

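In 4 results the difference between Tom+ and Tom- had opposite signs in the 2 capture runs; none of these differences between runs was tested. The share of mitosis-gene cells differed by -5 percentage points (Tom+ minus Tom-) in run 1 and 4.81 in run 2. The share of cells with at least 3 replication genes differed by -6.43 and 0.287 points. Members seen per cell at 2000 UMIs differed by -0.479 and 0.815 genes, and replication and mitosis genes alone by -0.557 and 0.544. Run 1 held 55 of the 161 cells, and its Tom+ library held no mitosis-gene cell.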

How the results depend on the processing

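The 38 genes past the threshold became 8 with at least 5000 UMIs per cell (1227 genes tested), 24 on thinned counts (1494 tested), 116 with the capture run as a replicate block, and 27 to 65 when a library was left out, the most without Tom- run 1. Members past the threshold stayed at 0 in these fits except under the block, where *Cdkn1a* passed (1 member; log2 fold change 1.18, adjusted p 0.00277, range over alternatives 0.00277 to 0.647). *Cdkn1a*, *Ccnd1*, *Ccnd2*, *Cdk4*, *Pcna*, *Rrm1* and *Stmn1* kept their sign in every alternative in which they were tested. With a library left out, log2 fold changes ran across 0 for *Top2a* (-6.35, against a Tom+ level of 0, to 0.36), *Hmgb2* (-0.23 to 0.94), *H2afz* (-0.97 to 0.07), *Tubb5* (-0.66 to 0.37) and *Tuba1b* (-0.4 to 0.29). Signs also reversed for *H2afz* at 5000 UMIs (0.06), for *Tubb5* without mitosis-gene cells (0.01), without cells of 3 markers of another type (0.02), thinned (0.72) and unfiltered (0.11), and for *Tuba1b* at 1000 UMIs (0.03), without cells of other markers (0) and unfiltered (0.12). The leaving out of cells by members or markers was added after seeing the data.

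The difference in members seen per cell became -0.00249 without the 5% deepest cells and -0.0831 as the mean over all draws, and ran from -0.391 to 0.727 with a library left out. That in replication and mitosis genes became 0.165 at 5000 UMIs and 0.0176 without cells of other markers, and ran from -0.33 to 0.317. The 6 mitosis-gene cells were 2 to 6 with a library left out, 2 without Tom+ run 2. The 15 cells with at least 3 replication genes were 35 at 2 genes, 9 at 4 genes, 6 thinned and 4 at 2 UMIs per gene. The causes were not tested. With 2 libraries a sort, with a lone library assumed to vary like the others when its partner was left out, and with a median of 3225 to 4524.5 UMIs per cell, a member unseen in a cell is not shown to be absent.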
